A study of Mus musculus with 38 samples.

Results

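The clones sAg1 and sAg3 are 2 mouse CD8 T cell lines that each descend from 1 cell and that the labels place in the same class, CD8IL13+, called CD8γ13 in the series design. Their messenger RNA was compared after 14 h on plates coated with an anti-CD3 antibody (0.5 ug/ml), which engages the T cell receptor complex without antigen. All arrays titled activated_sAG1 and activated_sAG3 were taken, 4 per clone, which makes 8 of the 38 arrays of the series. The series also holds both clones in a dormant state (3 arrays each). It further holds the IL13-negative clones 8uvmo-2 and 8uvmo-3 and the alloreactive conventional CD8 clone CD8bm1, in both states (4 arrays each). All were grown in RPMI medium with fetal bovine serum and 2-mercaptoethanol. The mouse strain is not given in the sources used here. Each side of the comparison is 1 clone, so a difference holds for these clones and not for a class of cells. Whether the arrays of a clone came from separate cultures is not in the labels, so the p-values cover only the spread from array to array, and that spread may be technical.

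T cells that make interleukin 13 and interleukin 5 belong to the type 2 arm of immunity, which GATA3 drives and which recruits and feeds eosinophils, whereas interferon gamma, TNF and cytotoxic granules belong to the type 1 arm under T-bet and EOMES. CD8 T cells mostly follow the second program, and a CD8 clone that makes IL-13 beside interferon gamma combines parts of both. Many T cell cytokine genes are silent at rest and are transcribed after the receptor is triggered, so that an activated clone shows which of them it can open.

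Levels are deposited log2 values of Affymetrix probe sets, so a difference of 1 is 2-fold. A level below 7 was treated as near background, close to the median of all values (6.91), although no background was measured. Where the lower clone was below 7, its fold is given as "at least". Calls needed both an absolute log2 difference of at least 1 and a p under 0.05 after Benjamini-Hochberg adjustment over all 23410 gene-named probe sets, from a limma fit to all arrays. Counts of list members as higher or lower used the adjusted p alone, without that minimum. By that rule 18.9% of all tested probe sets were higher and 16.5% lower in activated sAg1. The 7 T cell markers measured (Cd3d, Cd3e, Cd3g, Cd247, Cd8a, Cd8b1 and Zap70) had means of at least 9.81 in both clones. Arrays of the same clone correlated at 0.9956 to 0.9981 in sAg1 and at 0.9959 to 0.9971 in sAg3, against 0.9638 to 0.968 between the clones, as a description across probe sets.

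The 2 activated clones differed at 1178 of 23410 probe sets (5.03%). Of these, 610 (2.61%) were higher and 568 (2.43%) lower in sAg1. Differences of at least 2 were found for 190 of the higher and 177 of the lower probe sets, and of at least 4 for 31 and 33. The 4 arrays of sAg1 and the 4 of sAg3 did not overlap for 1174 of the 1178, against 39.7% of all tested probe sets. In 261 of the 610 the mean of sAg3 was below 7, and in 257 of the 568 that of sAg1 was, so a large share of the calls are genes near background in at least 1 clone. Both means were below 7 for 86 of the 1178 (7.3%). In RNA from a whole culture, fewer cells of a type and less RNA per cell cannot be told apart.

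**Figure D1:**
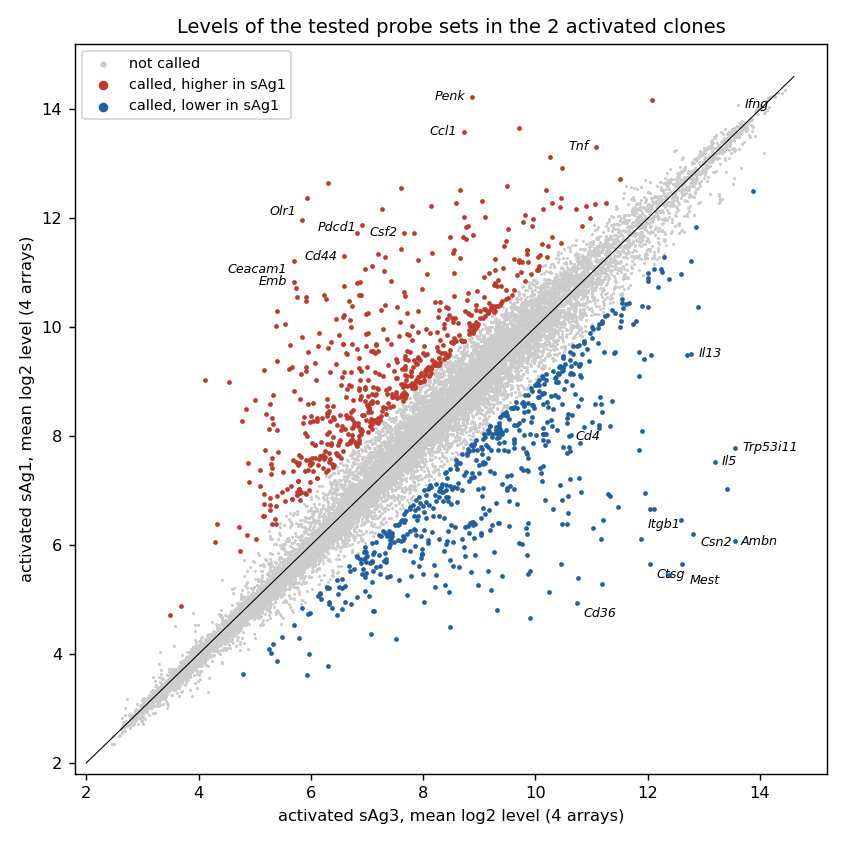
Mean log2 level of each tested probe set in activated sAg1 (vertical axis) against activated sAg3 (horizontal axis), 4 arrays each; red points were called higher and blue points called lower in sAg1, and the line marks equal levels. Penk and Olr1 stand far above the line, Ambn, Mest and Il5 far below it, and Ifng lies near it at the top of the scale.

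The type 2 cytokines that were expressed lay far lower in sAg1. Il5, the eosinophil growth factor, read 8.16, 8.32, 6.93 and 6.70 in the sAg1 arrays, against 13.05, 13.18, 13.32 and 13.21 in the sAg3 arrays. The difference was -5.66 (SE 0.204, adjusted p = 3.43e-22), or 50.7-fold lower in sAg1. The mean of Il5 in sAg1 (7.53) was above 7, so the fold carries no "at least". The sAg1 readings of 6.93 and 6.70 were near background. Il13, which acts on epithelium and smooth muscle, read 10.32, 10.08, 9.12 and 8.52 in sAg1, against 12.72, 12.87, 12.72 and 12.79 in sAg3. Its difference was -3.27 (SE 0.2, adjusted p = 1.27e-15). Both genes spread widely over the sAg1 arrays, with SDs of 0.831 and 0.839 against 0.111 and 0.071 in sAg3. For both, sAg1 replicates 1 and 2 were above replicates 3 and 4. The SEs and adjusted p-values of both genes use the spread shared by all groups. They do not fully reflect the wider spread within sAg1. Il13 averaged 7.81, 6.52 and 6.60 in activated 8uvmo-2, 8uvmo-3 and CD8bm1, below every array of either CD8IL13+ clone. The other type 2 cytokines gave no signal that separated the clones: Il4 averaged 6.47 ± 0.102 in sAg1 and 6.45 ± 0.12 in sAg3, and Il9 averaged 6.65 ± 0.074 in sAg1 and 6.71 ± 0.012 in sAg3 (SD, n = 4 each), all near background.

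Il3 and Csf2 ran the other way. Il3, a growth factor of mast cells and basophils, read 12.03, 11.65, 11.78 and 11.46 in sAg1, against 8.06, 7.99, 7.67 and 7.64 in sAg3. The difference was 3.89 (SE 0.183, adjusted p = 6.68e-19), or 14.8-fold. Csf2, which encodes GM-CSF, read 11.70, 11.76, 11.55 and 11.91 in sAg1, against 7.87, 7.79, 7.51 and 7.49 in sAg3, a difference of 4.06 (SE 0.274, adjusted p = 1.68e-14). No array of either gene overlapped between the clones. Il10, which restrains inflammation, was higher in sAg1 with 11.23, 11.67, 10.65 and 10.29, against 9.74, 9.80, 9.48 and 9.65 in sAg3 (difference 1.29, SE 0.194, adjusted p = 1.35e-06). Il2, the T cell growth factor, averaged 7.59 ± 0.321 in sAg1 and 6.34 ± 0.192 in sAg3 (SD, n = 4 each), at least 2.38-fold higher in sAg1 (adjusted p = 3.81e-06).

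**Figure D2:**
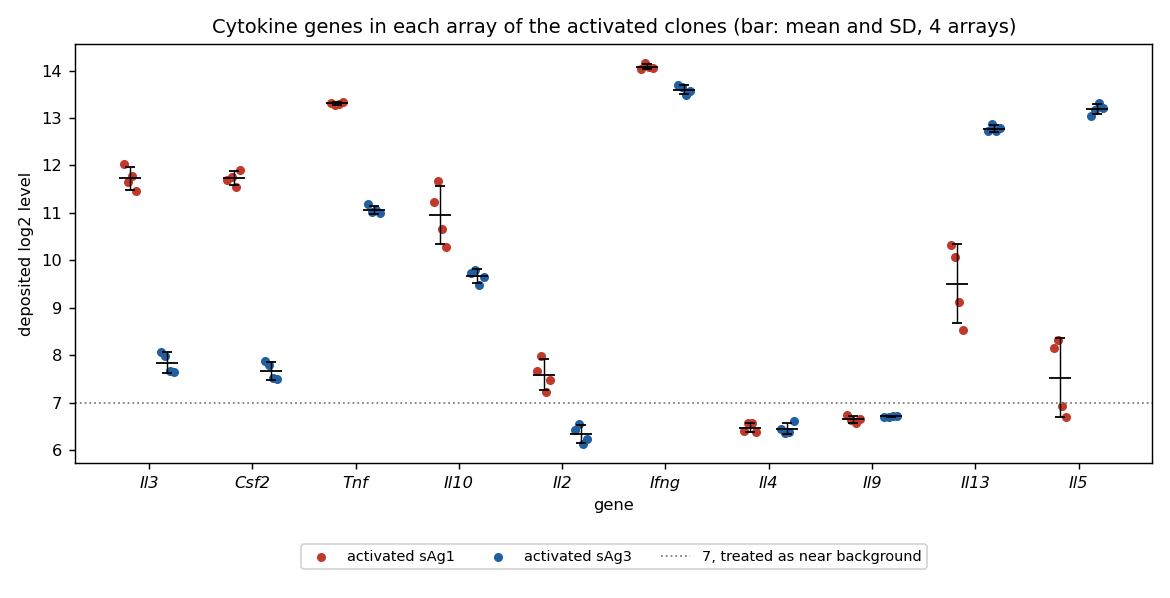
Deposited log2 level of 10 cytokine genes in every activated array, sAg1 in red on the left and sAg3 in blue on the right of each pair, with the mean and SD over 4 arrays. Il3, Csf2 and Tnf are higher in every sAg1 array, Il13 and Il5 in every sAg3 array, Ifng is above 13 throughout, and Il4 and Il9 lie under the dotted line at 7.

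Il13, Il5, Csf2 and Il3 share 1 neighbourhood of chromosome 11, in which the clones differed in opposite directions at its 2 ends. In chromosome order the measured genes run from Septin8 and Kif3a through Il4, Il13, Rad50, Il5, Irf1, 3 Slc22a transporters, Pdlim4 and P4ha2 to Csf2, Il3 and Acsl6. Il13 and Il5 were lower, and Csf2 and Il3 higher, in sAg1. Kif3a, a kinesin motor subunit beside Il4, was also lower in sAg1, at 7.04 ± 0.139 in sAg1 and 8.97 ± 0.043 in sAg3 (SD, n = 4 each; difference -1.93, SE 0.0749, adjusted p = 2.88e-21). The other 10 genes were not called: Rad50, a DNA repair gene whose body holds control elements of the type 2 cytokines, differed by -0.41 (adjusted p = 0.00119), and Irf1 by -0.58 (adjusted p = 0.00461). Kif3a, Rad50 and Irf1 were chosen here after their values were seen. The promoters of the 4 cytokine genes are printed because they lie in 1 neighbourhood and moved in opposite directions. Each line is the RefSeq sequence (GRCm38.p6) from 250 bases before to 50 after the start of the gene, read 5′ to 3′ along the gene, and capitals mark a match to a GATA motif (AGATAA or AGATAG, searched on both strands). The windows are chr11:54267230-54267529 (minus strand) for Il3, chr11:54249850-54250149 (minus strand) for Csf2, chr11:53720544-53720843 (plus strand) for Il5 and chr11:53634653-53634952 (minus strand) for Il13.
Il3: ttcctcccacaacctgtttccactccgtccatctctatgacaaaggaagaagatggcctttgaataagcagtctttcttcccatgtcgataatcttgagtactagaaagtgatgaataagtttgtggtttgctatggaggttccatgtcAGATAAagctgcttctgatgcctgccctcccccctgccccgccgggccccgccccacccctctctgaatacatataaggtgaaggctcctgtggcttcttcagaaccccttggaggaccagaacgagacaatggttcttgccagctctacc
Csf2: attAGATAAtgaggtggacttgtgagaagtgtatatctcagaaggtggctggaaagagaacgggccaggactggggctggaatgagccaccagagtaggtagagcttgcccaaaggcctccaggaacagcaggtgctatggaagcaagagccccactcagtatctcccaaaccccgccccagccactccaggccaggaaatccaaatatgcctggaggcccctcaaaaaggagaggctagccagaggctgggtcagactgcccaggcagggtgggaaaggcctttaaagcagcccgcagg
Il5: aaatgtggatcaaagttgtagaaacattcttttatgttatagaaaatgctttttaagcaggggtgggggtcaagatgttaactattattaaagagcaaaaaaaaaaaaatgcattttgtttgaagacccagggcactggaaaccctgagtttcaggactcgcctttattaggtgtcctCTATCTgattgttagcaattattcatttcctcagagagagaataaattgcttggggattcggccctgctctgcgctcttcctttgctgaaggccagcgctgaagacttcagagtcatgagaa
Il13: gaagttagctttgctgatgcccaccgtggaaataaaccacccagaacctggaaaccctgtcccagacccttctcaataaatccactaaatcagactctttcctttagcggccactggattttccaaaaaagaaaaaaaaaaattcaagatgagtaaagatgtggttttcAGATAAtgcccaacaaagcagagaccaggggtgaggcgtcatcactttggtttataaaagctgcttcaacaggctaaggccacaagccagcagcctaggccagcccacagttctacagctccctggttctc
All 4 windows hold 1 match, in Il5 on the opposite strand (CTATCT), so genes that were higher and genes that were lower in sAg1 carry it alike. Either form occurs in 18.6% of all 32851 promoter windows of this length. Gata3 itself was 1.61-fold lower in sAg1, with 9.53, 9.73, 9.75 and 9.75 in sAg1 against 10.33, 10.31, 10.56 and 10.30 in sAg3 (difference -0.68, adjusted p = 2.01e-09), and was under the minimum for a call. A match in a window is a description of its letters and not a binding site.

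Other genes of the type 2 list went in both directions. Of 25 measured members, 8 were higher and 6 lower in sAg1 at the adjusted p alone, a rule that 18.9% and 16.5% of all tested probe sets met, and the list median was 0.02 against -0.048 over all tested probe sets. Lower in sAg1 were Pparg, a lipid-sensing nuclear receptor (7.81 ± 0.056 in sAg1 and 10.49 ± 0.034 in sAg3; difference -2.68), and Hpgds, the prostaglandin D2 synthase of blood cells (difference -2.42). Higher in sAg1 were Rora, the nuclear receptor of innate type 2 cells, at 10.39 ± 0.122 in sAg1 and 6.74 ± 0.064 in sAg3 (SD, n = 4 each; difference 3.66, SE 0.127, adjusted p = 1.42e-22), and the chemokine receptors Ccr4 (difference 3.11) and Ccr8 (difference 1.13). Ccr8 read 9.20, 9.31, 9.69 and 8.92 in sAg1 and 8.24, 8.18, 8.08 and 8.11 in sAg3, and was near background in the other 3 activated clones (5.30 to 5.67). Without the third sAg1 array its difference was 0.99, just under the minimum.

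Other secreted factors divided the clones as sharply. Penk, the precursor of the enkephalin opioid peptides, read 14.21, 14.23, 14.28 and 14.22 in sAg1, against 8.50, 9.07, 9.0 and 8.91 in sAg3 (difference 5.36, SE 0.219, adjusted p = 1.28e-20). Inhba, the activin A subunit, averaged 12.55 ± 0.133 in sAg1 and 7.61 ± 0.367 in sAg3 (SD, n = 4 each; difference 4.94). Csf1, the macrophage growth factor, averaged 11.07 ± 0.172 in sAg1 and 6.96 ± 0.093 in sAg3 (SD, n = 4 each), at least 17.3-fold higher in sAg1. Each of these had no sAg1 array below any sAg3 array. In the other direction, Ebi3, a subunit shared by IL-27 and IL-35, averaged 6.93 ± 0.211 in sAg1 and 11.29 ± 0.106 in sAg3 (SD, n = 4 each), at least 20.5-fold lower in sAg1 (adjusted p = 3.28e-16). Il23a, the IL-23 subunit, which was chosen after its values were seen, averaged 6.46 ± 0.224 in sAg1 and 11.20 ± 0.133 in sAg3 (SD, n = 4 each; at least 26.5-fold lower in sAg1). Of 31 interleukins and growth factors measured, 9 (29%) were higher and 4 (12.9%) lower in sAg1 at the adjusted p alone. Those shares were 18.9% and 16.5% over all tested probe sets. Called were 8 and 2 genes, against 2.61% and 2.43% of all tested probe sets.

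The chemokines that differed at the adjusted p alone were higher in sAg1 with 1 exception. Of 24 ligands, 9 (37.5%) were higher and 1 (4.17%) lower, against 18.9% and 16.5% of all tested probe sets. Calls numbered 7 and 0, against 2.61% and 2.43% of all tested probe sets, and 13 ligands were below 7 in both clones. Ccl1, the ligand of CCR8, read 13.51, 13.52, 13.67 and 13.66 in sAg1, against 8.90, 8.63, 8.87 and 8.50 in sAg3 (difference 4.86, SE 0.105, adjusted p = 2.05e-28). Xcl1, which attracts cross-presenting dendritic cells, read 13.64, 13.70, 13.62 and 13.65 in sAg1, against 10.27, 9.66, 9.63 and 9.23 in sAg3 (difference 3.95, SE 0.149). Smaller differences followed, of 2.94 for Ccl5 (adjusted p = 1.27e-08) and 2.87 for Ccl4 (adjusted p = 4.3e-17). Ccl9 was higher by 2.22. In sAg3 the first array stood above the other 3 for Ccl5 (8.94) and below them for Ccl4 (9.74).

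The TNF family showed the same direction for ligands, 7 (46.7%) higher and 2 (13.3%) lower of 15 measured at the adjusted p alone. Those shares were 18.9% and 16.5% over all tested probe sets. Called were 7 and 0 ligands, against 2.61% and 2.43% of all tested probe sets. Tnf read 13.31, 13.28, 13.30 and 13.34 in sAg1, against 11.19, 11.02, 11.07 and 11 in sAg3, a 4.72-fold higher level in sAg1 (difference 2.24, SE 0.113, adjusted p = 5.56e-18). Its chromosome 17 neighbours Lta (difference 2.92) and Ltb (difference 2.84), which build the lymphotoxins, were higher with it. Tnfsf4, the OX40 ligand, averaged 10.05 ± 0.175 in sAg1 and 5.54 ± 0.231 in sAg3 (SD, n = 4 each), at least 22.9-fold higher in sAg1, and was also near background in 8uvmo-2, 8uvmo-3 and CD8bm1 (6.36, 6.06 and 5.25). Tnfsf14 (LIGHT; difference 3.72), Tnfsf11 (RANKL; difference 3.11) and Fasl (difference 1.85) were higher as well. Of the receptors, Fas (difference 2.57) and Tnfrsf1a (difference 1.85) were higher in sAg1, while Tnfrsf8, which encodes CD30, was lower (10.12 ± 0.145 in sAg1 and 11.80 ± 0.068 in sAg3; difference -1.68).

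Of 21 type 1 genes measured, 14 (66.7%) were higher and 6 (28.6%) lower in sAg1 at the adjusted p alone. Those shares were 18.9% and 16.5% over all tested probe sets. Called were 10 and 1 genes, against 2.61% and 2.43% of all tested probe sets. The list median was 0.98, against -0.048 over all tested probe sets. Ifng read 14.04, 14.16, 14.08 and 14.06 in sAg1, against 13.69, 13.65, 13.49 and 13.57 in sAg3. Its difference of 0.49 (SE 0.0769, adjusted p = 3.38e-06) was small, and both clones lay near the array maxima of 14.32 to 14.46. The transcription factors split. Tbx21, which encodes T-bet, read 11.05, 11.09, 11.19 and 11.16 in sAg1 against 10.21, 10.09, 10.17 and 10.10 in sAg3 (difference 0.98, adjusted p = 3.86e-13), just under the minimum for a call. Eomes, its relative, was near background in sAg1 at 5.56, 5.94, 5.80 and 5.61, against 8.40, 8.34, 8.59 and 8.55 in sAg3, at least 6.69-fold lower in sAg1 (difference -2.74, adjusted p = 6.12e-16). Both chains of the IL-18 receptor were higher in sAg1: Il18r1 averaged 10.02 ± 0.268 in sAg1 and 5.37 ± 0.306 in sAg3 (SD, n = 4 each; at least 25.1-fold), and Il18rap 10.99 ± 0.124 in sAg1 and 8.54 ± 0.107 in sAg3 (SD, n = 4 each; difference 2.45). Among other cytokine receptors, Il21r (difference 3.07) and Il10rb (difference 2.64) were higher, and the decoy receptor Il1r2 was lower (difference -2.45, with 7.76 to 9.88 over the sAg3 arrays).

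**Figure D3:**
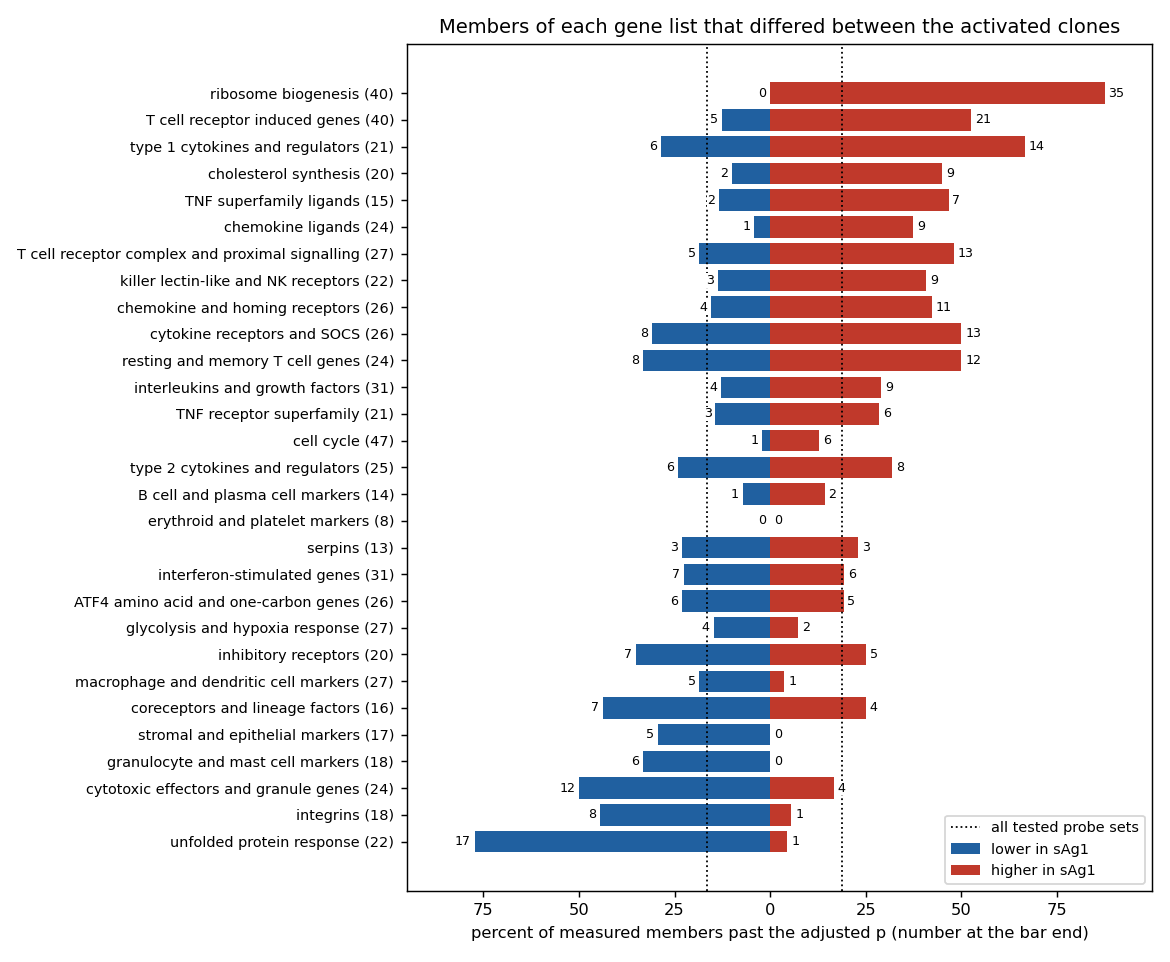
Percent of the measured members of 29 gene lists (number measured in brackets) that were higher (red, right) or lower (blue, left) in activated sAg1 at an adjusted p under 0.05; numbers at the bars count members and the dotted lines mark the shares of all tested probe sets (18.9% higher, 16.5% lower). Ribosome biogenesis (35 of 40 higher) and the unfolded protein response (17 of 22 lower) are at the 2 extremes.

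Both clones carried the CD8 coreceptor, and they differed in CD4. Cd8a averaged 12.82 ± 0.117 in sAg1 and 12.34 ± 0.084 in sAg3, and Cd8b1 12.90 ± 0.128 in sAg1 and 12.40 ± 0.075 in sAg3 (SD, n = 4 each; differences 0.49 and 0.50). Cd4, the coreceptor for MHC class II, read 8.12, 7.87, 7.93 and 8.10 in sAg1 and 10.61, 10.58, 10.68 and 10.50 in sAg3. It was 6.01-fold lower in sAg1 (difference -2.59, SE 0.16, adjusted p = 1.49e-15), and averaged 8.09, 6.44 and 6.65 in activated 8uvmo-2, 8uvmo-3 and CD8bm1. Myb, a regulator of progenitor and memory states, was lower in sAg1 (difference -2.58), and Runx1, a lineage factor, was higher (difference 1.73).

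Adhesion and homing genes formed 2 contrasting sets. Of 18 integrin chains, 1 (5.56%) was higher and 8 (44.4%) lower in sAg1 at the adjusted p alone. Those shares were 18.9% and 16.5% over all tested probe sets. Called were 1 and 4 chains, against 2.61% and 2.43% of all tested probe sets. Itgb1, the β1 chain of the collagen and fibronectin receptors, read 6.06, 6.52, 5.85 and 6.04 in sAg1, against 11.76, 11.98, 11.84 and 11.91 in sAg3, at least 54-fold lower in sAg1 (difference -5.76, SE 0.259, adjusted p = 2.1e-19). Itga1, the α1 chain that pairs with β1, was high in both clones, at 11.56 ± 0.053 in sAg1 and 12.02 ± 0.083 in sAg3 (SD, n = 4 each; difference -0.47). Itgb3 (difference -3.14), Itgax (difference -2.72) and Itga6 (difference -1.55) were lower too, and Itgb7, of the gut-homing integrins, was the 1 chain that was higher (difference 1.38). Nrp1, the gene next to Itgb1 on chromosome 8 and chosen after its values were seen, was opposite, at 9.81 ± 0.175 in sAg1 and 5.84 ± 0.213 in sAg3 (SD, n = 4 each; at least 15.8-fold higher in sAg1). Itgb1 was also below 7 in both 8uvmo clones (6.88 and 6.06) and averaged 11.27 in CD8bm1.

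Of 26 chemokine and homing receptors, 11 (42.3%) were higher and 4 (15.4%) lower in sAg1 at the adjusted p alone. Those shares were 18.9% and 16.5% over all tested probe sets. Called were 7 and 1 receptors, against 2.61% and 2.43% of all tested probe sets. Cd44, the hyaluronan receptor, read 11.26, 11.26, 11.27 and 11.41 in sAg1, against 6.94, 6.59, 6.46 and 6.36 in sAg3 (difference 4.71, SE 0.125, adjusted p = 5.94e-26). The probe set of Cd44 also read 7.84 and 6.16 in 8uvmo-3 and CD8bm1, and 11.14 in 8uvmo-2. Cxcr6, the receptor of CXCL16, averaged 10.51 ± 0.161 in sAg1 and 6.27 ± 0.24 in sAg3 (SD, n = 4 each; at least 18.9-fold higher in sAg1). Ccr2 (difference 2.16), Gpr183 (difference 2.14) and Ccr7 (difference 1.26) were higher as well.

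Inhibitory receptors differed in both directions, while more of the natural killer receptors were higher than lower in sAg1. At the adjusted p alone, 5 of 20 inhibitory receptors (25%) were higher and 7 (35%) lower in sAg1, of which 4 and 3 were called. Among 22 killer receptors, 9 (40.9%) were higher and 3 (13.6%) lower, of which 2 and 2 were called, and 13 of the 22 were below 7 in both clones. Over all tested probe sets 18.9% were higher and 16.5% lower, and 2.61% were called higher and 2.43% called lower. Pdcd1, which encodes PD-1, read 11.79, 11.83, 12.04 and 11.85 in sAg1, against 6.88, 7.01, 6.82 and 6.95 in sAg3, at least 31.2-fold higher in sAg1 (difference 4.96, SE 0.128, adjusted p = 2.47e-26). Lag3 followed with 8.28 ± 0.235 in sAg1 and 6.03 ± 0.18 in sAg3 (SD, n = 4 each). Entpd1, the ectoenzyme CD39, was 13.9-fold lower in sAg1 (8.10 ± 0.367 in sAg1 and 11.90 ± 0.078 in sAg3), and Cd96 9.21-fold lower (difference -3.20). Cd226, an activating receptor that shares ligands with CD96 and TIGIT, averaged 10.48 ± 0.237 in sAg1 and 5.91 ± 0.194 in sAg3 (SD, n = 4 each; difference 4.57). Klrg1, a marker of terminal effector cells, read 6.20, 6.21, 6.58 and 6.52 in sAg1 and 9.82, 11.17, 10.24 and 10.69 in sAg3 (difference -4.10, adjusted p = 2.38e-17). The largest call of all among single genes higher in sAg1 was Olr1, a scavenger receptor for oxidised lipoprotein, at 11.99, 12.09, 11.97 and 11.83 in sAg1 against 6.07, 6.06, 5.68 and 5.58 in sAg3 (difference 6.12, SE 0.138, at least 69.7-fold). Ceacam1, an adhesion molecule and coinhibitory receptor, followed at 5.52 (at least 46-fold).

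Both clones expressed the main cytotoxic genes. Of 24 measured, 4 (16.7%) were higher and 12 (50%) lower in sAg1 at the adjusted p alone. Those shares were 18.9% and 16.5% over all tested probe sets. Called were 3 and 3 genes, against 2.61% and 2.43% of all tested probe sets. Gzmb read 13.87 to 13.97 in sAg1 and 13.95 to 14.02 in sAg3, near the array maxima, with a difference of -0.05 (adjusted p = 0.605). Prf1, the pore-forming perforin, averaged 12.92 ± 0.086 in sAg1 and 13.67 ± 0.026 in sAg3 (SD, n = 4 each; difference -0.75, adjusted p = 0.000423). Gzmc read 9.12, 8.94, 9.34 and 10.58 in sAg1 against 11.87, 12.06, 12.13 and 12.15 in sAg3 (difference -2.56, adjusted p = 4.41e-10). Ctsw, a cathepsin of killer cells, was 13-fold higher in sAg1 (difference 3.70). The granzymes lie on chromosome 14 beside 2 serine proteases of other blood cells that were among the genes with the largest differences. Ctsg, the cathepsin G of neutrophil granules, read 5.83, 5.74, 5.42 and 5.63 in sAg1, against 11.91, 12.06, 12.02 and 12.17 in sAg3, at least 83.6-fold lower in sAg1 (difference -6.38, SE 0.137, adjusted p = 1.84e-28). Mcpt8, a basophil protease, averaged 6.67 ± 0.239 in sAg1 and 12.10 ± 0.231 in sAg3 (SD, n = 4 each; difference -5.43) and 9.63 and 9.90 in the 8uvmo clones. Of 18 granulocyte and mast cell markers, Mcpt8 included, 6 were lower and none higher in sAg1 at the adjusted p, and 17 were below 7 in both clones. The lower count ran from 1 to 6 over the alternative settings. Serine protease inhibitors of the serpin family also parted, with Serpinb6a at least 27.4-fold lower in sAg1 and Serpinb6b (difference 2.44) and Serpinb9, the granzyme B inhibitor (difference 2.24), higher.

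Milk and enamel protein genes, 3 caseins and Ambn, made up 4 of the 10 named genes with the largest differences in the direction of sAg3. Csn2, which encodes β-casein, read 6.24, 6.10, 6.36 and 6.11 in sAg1, against 12.49, 13.18, 12.67 and 12.90 in sAg3, at least 97.5-fold lower in sAg1 (difference -6.61, SE 0.168, adjusted p = 1.66e-26). Csn1s1 (αs1-casein; difference -6.39) and Csn3 (κ-casein; difference -6.13) showed the same separation. Ambn, the enamel matrix protein ameloblastin, read 6.11, 6.07, 6.32 and 5.78 in sAg1, against 13.55, 13.67, 13.50 and 13.46 in sAg3, the largest call of the comparison (difference -7.47, SE 0.181, at least 178-fold). These genes share a stretch of chromosome 5. In it, BC037156, Amtn and Enam, chosen after their values were seen, were also called lower in sAg1 (differences -6.94, -3.33 and -1.97). Enam was near background in both clones (4.00 in sAg1 and 5.96 in sAg3). The stretch did not move as a block. Csn1s2a, Csn1s2b, Prr27, Gm7337 and Odam, between the called genes, were below 7 in both clones and not called. Csn2, Csn1s1, Csn3, Ambn and BC037156 averaged 12.26 to 13.33 in activated CD8bm1 and 4.95 to 6.31 in activated 8uvmo-3.

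The promoters of Csn2 and Csn1s1 are shown because casein genes are known STAT5 targets in the mammary gland and both were lower in sAg1. Each covers 250 bases before to 50 after the start, from RefSeq (GRCm38.p6), in the direction of the gene, at chr5:87699376-87699675 (minus strand) for Csn2 and chr5:87665958-87666257 (plus strand) for Csn1s1. Capitals mark the STAT motif TTCNNNGAA, searched on both strands.
Csn2: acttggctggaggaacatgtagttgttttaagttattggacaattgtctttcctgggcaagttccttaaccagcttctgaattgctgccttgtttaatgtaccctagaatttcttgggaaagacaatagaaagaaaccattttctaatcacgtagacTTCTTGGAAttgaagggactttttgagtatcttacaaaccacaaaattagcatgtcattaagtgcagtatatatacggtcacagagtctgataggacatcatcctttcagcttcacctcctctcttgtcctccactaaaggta
Csn1s1: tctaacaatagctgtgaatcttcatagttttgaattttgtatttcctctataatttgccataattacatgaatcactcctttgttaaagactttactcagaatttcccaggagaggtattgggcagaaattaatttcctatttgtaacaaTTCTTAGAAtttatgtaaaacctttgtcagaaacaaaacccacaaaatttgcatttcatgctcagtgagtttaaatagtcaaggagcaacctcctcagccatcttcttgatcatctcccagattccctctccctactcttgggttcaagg
Each window holds 1 match, and 8.3% of all windows of this length hold the motif. Neither holds AGATAA or AGATAG, the GATA forms searched above. Other GATA forms were not searched. None of the 4 cytokine windows above holds the STAT motif.

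**Figure D4:**
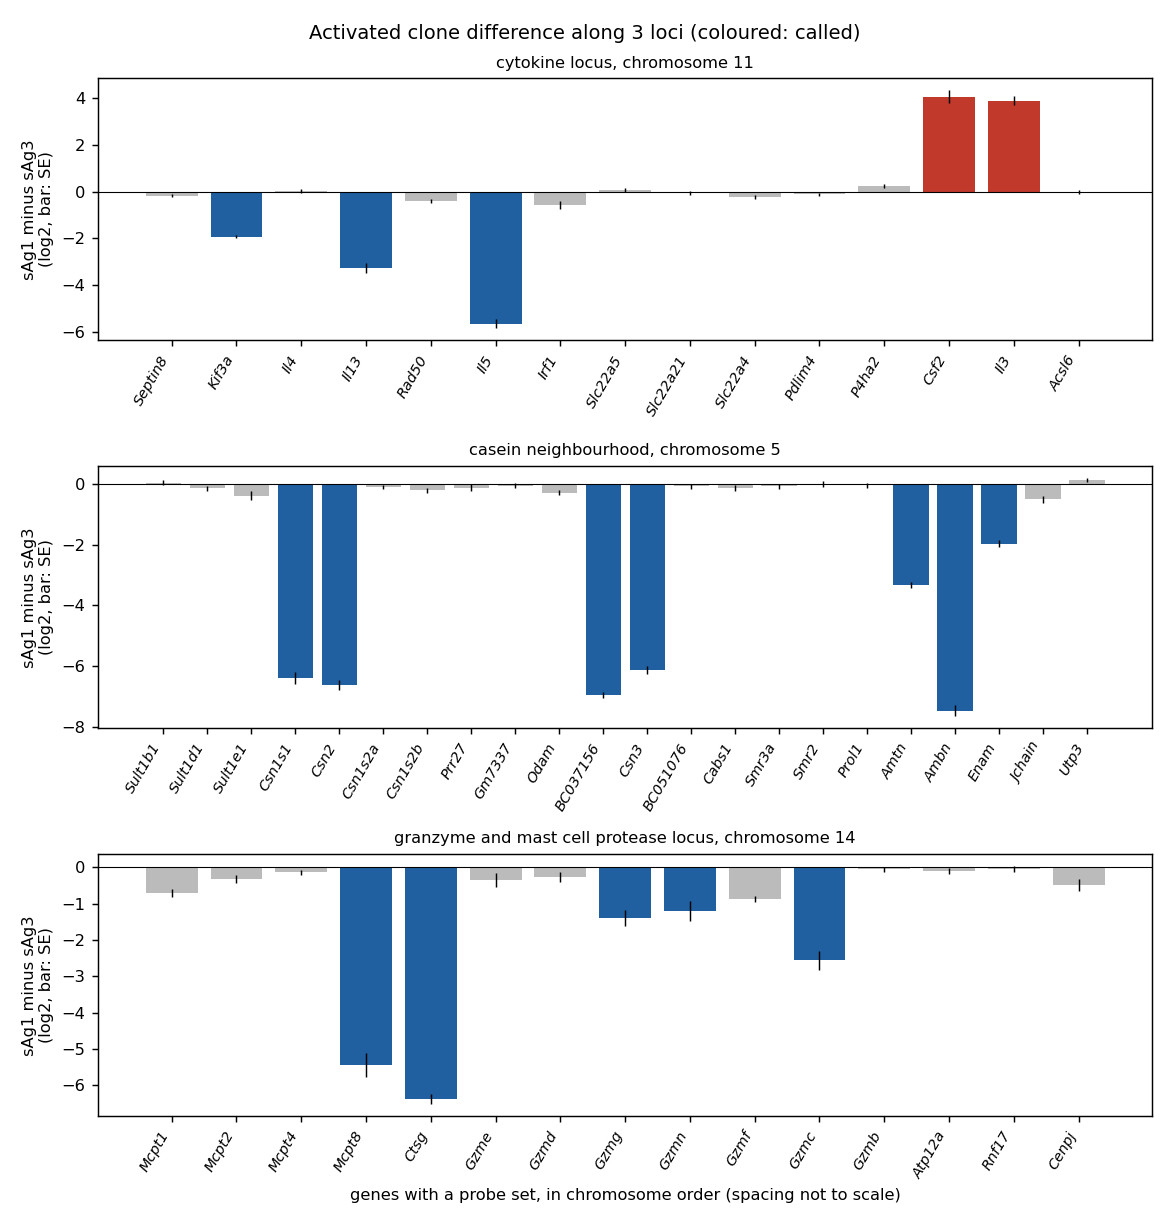
Difference between activated sAg1 and activated sAg3 (log2, with SE) for the measured genes of 3 loci in chromosome order, coloured where called; spacing is not to scale. Il13 and Il5 are lower and Csf2 and Il3 higher in sAg1, the called casein and enamel genes are interspersed with grey genes that were not called, and Mcpt8 and Ctsg stand out beside the granzymes.

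Further genes near background in sAg1 were Mest, an imprinted gene, at 5.60, 5.52, 5.77 and 5.73 in sAg1 against 12.75, 12.49, 12.71 and 12.52 in sAg3 (difference -6.96, SE 0.0787, adjusted p = 1.18e-36), and Cd36, a fatty acid and lipoprotein receptor, at 5.43, 5.49, 4.72 and 4.14 in sAg1 against 10.77, 10.87, 10.62 and 10.69 in sAg3 (difference -5.79). Mest was near background in all 3 other activated clones (5.64 to 5.78). Trp53i11 was 54.6-fold lower in sAg1. In the other direction, Emb, embigin, which escorts lactate transporters to the membrane, averaged 10.84 ± 0.083 in sAg1 and 5.69 ± 0.401 in sAg3 (SD, n = 4 each; difference 5.15). Akr1c18, which inactivates progesterone (difference 4.90), Tagap, a GTPase-activating protein of activated T cells (difference 4.91), and Ece1, the endothelin-converting enzyme (difference 4.90), completed the 10 named by rank.

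Of 40 genes that the T cell receptor induces, 21 were higher and 5 lower in sAg1 at the adjusted p, which 18.9% and 16.5% of all tested probe sets met, and the list median was 0.46. Egr2, an early zinc finger factor that also limits T cell responses, read 11.88, 11.78, 12.06 and 12.37 in sAg1, against 8.79, 8.68, 8.85 and 8.62 in sAg3 (difference 3.29, SE 0.106, adjusted p = 1.53e-23). Nr4a1, an orphan nuclear receptor used as a readout of receptor signalling, averaged 11.36 ± 0.202 in sAg1 and 8.16 ± 0.087 in sAg3 (SD, n = 4 each; difference 3.20). Gadd45b (difference 2.88), Dusp2 (difference 2.52) and Nfkbia, the inhibitor of NF-κB (difference 2.34), were also higher. In the dormant state 7 of the 40 were higher and 20 lower in sAg1 at the adjusted p, which 18.6% and 16.2% of all tested probe sets met there. Components of receptor signalling differed as well: of 27 measured, 13 (48.1%) were higher and 5 (18.5%) lower in activated sAg1 at the adjusted p alone. Calls numbered 5 and 1, against 2.61% and 2.43% of all tested probe sets. Ubash3b (difference 2.83), the phosphatase Ptpn6 (difference 2.39) and the adaptor Lat were higher. Lat averaged 10.37 ± 0.043 in sAg1 and 8.41 ± 0.135 in sAg3 (difference 1.96). The costimulator Icos was lower (difference -2.31). T cell receptor segments were covered by 52 probe sets, of which 35 were below 7 in both clones and 3 were called, all of the gamma chain and lower in sAg1. The 1 with a single symbol, Trgv1, averaged 10.74 ± 0.098 in sAg1 and 12.19 ± 0.041 in sAg3 (SD, n = 4 each).

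Growth and stress lists differed in how many members passed the adjusted p, which 18.9% of all tested probe sets did as higher and 16.5% as lower. The counts below as higher or lower use the adjusted p alone, and 2.61% and 2.43% of all tested probe sets were called. Of 40 ribosome biogenesis genes, 35 were higher and none lower in sAg1, with a median of 0.57; Ddx10, an RNA helicase, was the 1 called (10.33 ± 0.144 in sAg1 and 9.10 ± 0.133 in sAg3; difference 1.23, adjusted p = 2.73e-12). Of 22 unfolded protein response genes, 17 were lower and 1 higher, with a median of -0.37; the 1 called was Dnajb9, a chaperone of the endoplasmic reticulum (8.33 ± 0.241 in sAg1 and 10.56 ± 0.142 in sAg3; difference -2.23). Cholesterol synthesis had 9 of 20 higher and 2 lower, led by Hsd17b7 (12.17 ± 0.081 in sAg1 and 10.14 ± 0.189 in sAg3; difference 2.02) and Idi1 (difference 1.17). Of 27 glycolysis and hypoxia genes, 2 were higher and 4 lower: the glucose transporter Slc2a3 (difference -2.79) and the oxygen sensor Egln3 (difference -2.89) were lower, and Pfkfb3 was higher (difference 1.31). The lower count of this list ran from 4 to 11 over the alternative settings and its higher count from 1 to 4. Of 47 cell cycle genes, 6 were higher and 1 lower, although the list median was 0.47, and the higher count ran from 4 to 18 over the alternative settings; the replication helicase subunits Mcm4 (difference 1.16, adjusted p = 0.00295) and Mcm7 (difference 1.05, adjusted p = 0.0226) were called. The call of Mcm7 was lost without any 1 of 4 arrays (sAg1 replicates 1 and 2, sAg3 replicates 3 and 4), with adjusted p-values of 0.0659 to 0.0778. The interferon-stimulated list had 6 higher (19.4%) and 7 lower (22.6%) among its 31 measured members, shares near those of all tested probe sets, and the lower count ran from 5 to 12 over the alternative settings, with the RNA sensors Ifih1 (difference 2.72) higher and Ddx58 (difference -1.73) lower.

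The dormant arrays show which of these differences were there without the antibody. In the dormant state 1763 probe sets (7.53%) were called between sAg1 and sAg3, 878 higher (3.75%) and 885 lower (3.78%) in sAg1. Of the 1178 called after activation, 722 (61.3%) were called in the same direction in the dormant state, which is 41% of the 1763, and 7 in the opposite direction. The share was 310 of the 610 higher and 412 of the 568 lower in sAg1. Il5, Il13, the caseins, Ambn, Mest, Ctsg, Cd4, Itgb1, Pdcd1, Penk, Emb and Cxcr6 belong to these. For example, dormant Il13 averaged 6.24 in sAg1 and 10.29 in sAg3, and dormant Il5 4.56 in sAg1 and 10.88 in sAg3. The clone difference of Il13 was -4.05 in the dormant state and -3.27 after activation, and that change of 0.78 did not pass the test (adjusted p = 0.0601). Hpgds, Il10 and Serpinb9 were among the 7 called in opposite directions. Their differences were 1.03, -1.16 and -1.96 in the dormant state and -2.42, 1.29 and 2.24 after activation.

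A second set of differences appeared with activation. The clone difference changed at 1215 probe sets (5.19%) in the test of the difference itself, 626 (2.67%) more positive and 589 (2.52%) more negative in the activated state. Of the 1178 calls, 208 were not called in the dormant state and changed, 150 of them higher in sAg1. Olr1, Akr1c18, Ccl1, Inhba, Il3, Xcl1, Egr2 and Nr4a1 are of this kind. The test of the change shares the activated arrays with the call, so the count of 208 is a description. Dormant Il3 averaged 4.32 in sAg1 and 4.48 in sAg3, and the clone difference grew by 4.05 (SE 0.279, adjusted p = 3.3e-13). Dormant Xcl1 averaged 5.87 in sAg1 and 5.85 in sAg3, with a change of 3.94. Olfm3, which encodes an olfactomedin-domain protein, went the other way. It averaged 5.52 in sAg1 and 9.89 in sAg3 when activated, differed by -0.29 in the dormant state, where it was not called, and changed by -4.09. Cd36 was already called lower in the dormant state (difference -1.59) and changed by -4.20. Other genes differed in the dormant state and converged. Tnfrsf9, the costimulator 4-1BB, averaged 6.97 in sAg1 and 12.81 in sAg3 when dormant, and 11.84 in sAg1 and 12.85 in sAg3 when activated (change 4.83, adjusted p = 9.58e-11). Gzmb averaged 12.24 in dormant sAg1 and 13.92 in dormant sAg3, a difference of -1.68 in the dormant state against -0.05 in the activated state. Dormant sAg1 also carried signal of Lyz2, a macrophage lysozyme (9.26 in sAg1 and 5.28 in sAg3), and 9 of 27 macrophage and dendritic cell markers were higher and 2 lower there at the adjusted p, which 18.6% and 16.2% of all tested probe sets met in the dormant state; their part in the dormant values was not tested.

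**Figure D5:**
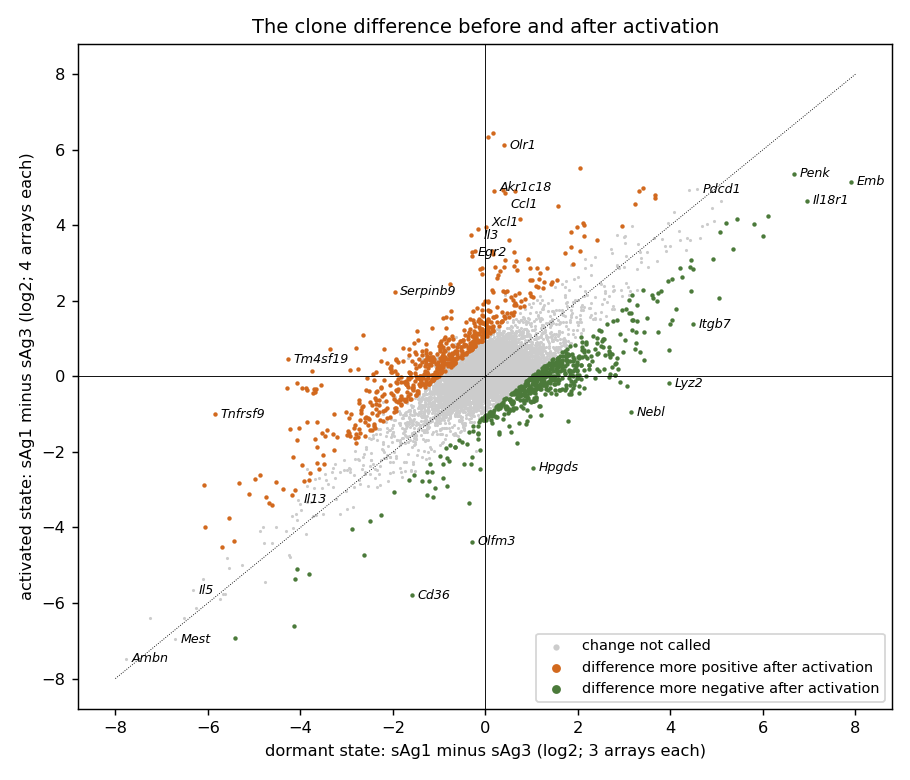
Clone difference (sAg1 minus sAg3, log2) in the activated state (vertical axis) against the dormant state (horizontal axis) for all tested probe sets; orange and green points changed between the states past the test and the minimum of 1. Ambn, Mest, Il5 and Il13 lie near the dotted line of equal difference, Olr1, Il3 and Xcl1 rise above a dormant difference near 0, and Tnfrsf9 lies far to the left near 0 in the activated state.

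Among all activated clones, the sAg1 arrays correlated more closely with both 8uvmo clones than with sAg3. Arrays of sAg1 correlated at 0.9767 to 0.9801 with 8uvmo-2 and at 0.9754 to 0.9799 with 8uvmo-3, against 0.9638 to 0.968 with sAg3, while sAg3 correlated at 0.9659 to 0.9694 with CD8bm1, given as a description across probe sets that share their normalization. Of the 610 probe sets higher in sAg1, the mean of 8uvmo-2 was nearer to sAg1 for 411 and that of 8uvmo-3 for 455, and of the 568 lower ones for 386 and 448. The mean of CD8bm1 was nearer to sAg1 for 244 of the 610 (40%) and for 315 of the 568 (55.5%). These counts share the sAg1 and sAg3 arrays with the call itself. For comparison, 8uvmo-2 and 8uvmo-3 differed from each other at 725 probe sets (3.1%).

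On chromosome 8, more probe sets were lower than higher in sAg1. At the adjusted p alone, 33.8% of its probe sets were lower and 5.38% higher in sAg1, against 12.4% to 22.6% lower and 16% to 23.7% higher on the 19 other chromosomes. The Y chromosome, with 30 probe sets and none past the adjusted p, was left out of these ranges. The median difference of the well expressed probe sets of chromosome 8 (mean of at least 9) was -0.30 after activation and -0.383 in the dormant state. On the other chromosomes it was -0.026 to 0.213 and -0.063 to 0.1. Relative to the mean of the other 3 activated clones, chromosome 8 exceeded the other chromosomes by 0.39 to 0.42 in the 4 sAg3 arrays and by -0.03 to -0.01 in the 4 sAg1 arrays. Without chromosome 8, 1124 probe sets were called.

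Markers of other cells were mostly near background in both activated clones. Of 27 macrophage and dendritic cell markers 21 were below 7 in both. At the adjusted p alone 5 (18.5%) were lower and 1 (3.7%) higher in sAg1, against 16.5% and 18.9% of all tested probe sets. The summed level of the 27 markers on the log2 scale was 11.53 to 11.76 over the sAg1 arrays and 12.7 to 13.01 over the sAg3 arrays. Ctss (7.36, 7.74, 6.29 and 6.53 in sAg1, against 10.86, 10.72, 10.79 and 10.86 in sAg3) and Itgax were lower and Cd74 higher (9.06 ± 0.366 in sAg1 and 7.53 ± 0.928 in sAg3). The lineage markers Csf1r (6.47 in sAg1 and 6.68 in sAg3) and Adgre1 (5.22 in sAg1 and 5.35 in sAg3) were near background. Lyz2 read 6.36, 7.11, 5.48 and 5.68 in sAg1 and 8.40, 5.36, 5.66 and 5.96 in sAg3, 1 array of which was high. Of 14 B cell markers 12 were below 7 in both, and Ebf1, a transcription factor of B cells, was at least 15.8-fold higher in sAg1. Of 17 stromal and epithelial markers 5 (29.4%) were lower in sAg1 at the adjusted p alone, and 11 were below 7 in both clones. Cdh1 (difference -1.43) and Lum (difference -1.97) were called. Lum averaged 5.06 in sAg1 and 7.03 in sAg3, and lost its call under limma's treat test against a difference of 1 (adjusted p = 0.63). That test uses the spread shared by all groups. The SD of Lum was 1.438 in activated 8uvmo-2 and 1.503 in activated 8uvmo-3, against 0.197 in sAg1 and 0.294 in sAg3. None of the 8 erythroid and platelet markers passed the test. The part of such cells in the clone differences was not tested.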

How the data were processed

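Labelled RNA of mouse CD8 T cell clones was hybridised to 38 Affymetrix arrays, each from 100 ng of total RNA (QIAGEN RNeasy, WT Plus kit), per the labels. The authors deposited log2 values for 35556 probe sets. The submitters' processing notes name Partek and RMA, which summarises the probes of a set by robust averaging, and give no version. The values ran from 1.81 to 14.76 with none missing. Precision is limited by the number of arrays, which have no read depth.

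The platform annotation names a gene for 23410 probe sets, which were tested. Of these, 1621 carry several symbols, and no gene was named from them. Each probe set was fitted with limma 3.58.1 (R 4.3.3), with 1 mean for each of 10 groups, a shared spread (28 residual degrees of freedom) and a mean trend in the moderated variance. Tests were two-sided, with Benjamini-Hochberg adjustment over all tested probe sets. Errors of differences are standard errors (SE), errors of means standard deviations (SD). The SE of a difference uses the shared spread, so it can be too small for a gene that spreads more widely within a compared clone.

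Named were 20 key genes, the 10 largest calls per direction with 1 symbol outside predicted loci and receptor segments, up to 5 called members of each of 29 lists (705 symbols, 654 measured), the 5 largest changes per direction between states, and called receptor segments. The probe set with the highest mean stood for a gene. The members, lists and rules were chosen with earlier results of these data known. Lists carry no set test. Gene order and chromosomes came from the GRCm38.p6 gene table.

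Deviations of same-numbered arrays of the activated clones from their group means correlated at 0.158, 0.018, 0.032 and 0.108. Those of differently numbered arrays correlated at -0.209 to 0.165. In simulated data with 200 changed probe sets of 23410, the activated comparison recovered 98% at a log2 change of 1.5 and 100% at 2 and at 3, with at most 1 false call. The simulated noise was normal, independent between arrays and of equal variance in every group. Recovery under unequal spreads or for changes nearer the minimum was therefore not tested.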

Additional observations from a re-analysis of the deposited data

Results flagged for a closer look

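Among 298 combinations of a named gene (149, with those chosen after their values were seen) and an activated clone, 22 had 1 array far from the other 3 by Dixon's criterion, which chance alone gives in about 1 in 20 groups. In sAg1 replicate 1 this was Gata3 (9.53). In sAg1 replicate 4 these were Cd8a (12.65), Csn3 (6.08), Cd44 (11.41), Serpinb9 (12.1), Dusp2 (10.09), Car9 (6.45), BC037156 (5.28), Gzmf (13.33) and Tmem176b (12.05). In sAg3 replicate 1 these were Ccl5 (8.94), Ccl4 (9.74), Il10rb (6.39) and Gimap5 (8.79). In sAg3 replicate 2 these were Gzmb (14.02), Cxcr6 (6.63), Tnfrsf9 (12.93) and Amtn (8.23). In sAg3 replicate 3 these were Gata3 (10.56), Rora (6.83) and Il18rap (8.7). In sAg3 replicate 4 this was Irgm1 (9.66). The values are log2 levels.

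For 81 of the 149 genes the clone difference itself differed between the activated and the dormant state in the limma test of that change, with an adjusted p under 0.05 over all tested probe sets and an absolute change of at least 1, against 5.19% of all tested probe sets. The change (of sAg1 minus sAg3, log2) was more positive after activation for 56 and more negative for 25, and many of these genes were named for their activated difference or for this change. Among the key genes it was more positive after activation for Il3 (4.05), Il10 (2.46), Csf2 (1.96), Tnf (1.81), Ifng (1.74), Gzmb (1.62), Cd8a (1.46), Il2 (1.32), Eomes (1.07) and Prf1 (1.07). Among the genes named by rank it was more positive after activation for Olr1 (5.73), Tnfrsf9 (4.83), Tm4sf19 (4.73), Akr1c18 (4.71), Inhba (4.55), Ccl1 (4.43), Tagap (4.26), Ceacam1 (3.48) and Ece1 (1.58), and more negative for Cd36 (-4.2), Lyz2 (-4.16), Nebl (-4.1), Olfm3 (-4.09), Hpgds (-3.45), Emb (-2.76), Csn2 (-2.47) and Penk (-1.32). Among cytokine, chemokine and TNF family genes and their receptors and homing receptors it was more positive after activation for Xcl1 (3.94), Tnfsf4 (2.94), Tnfrsf8 (2.41), Il21r (2.41), Lta (2.3), Tnfsf11 (2.18), Tnfsf14 (1.59), Ccl4 (1.55), Ccl9 (1.5), Fas (1.41), Ebi3 (1.07), Cd44 (1.05) and Il18rap (1.03), and more negative for Il18r1 (-2.31), Cxcr6 (-1.87), Il10rb (-1.62) and Ccr2 (-1.02). Among inhibitory and killer receptors, integrins, cytotoxic genes and serpins it was more positive after activation for Serpinb9 (4.2), Serpinb6b (3.21), Lag3 (1.78), Stx11 (1.71), Cd226 (1.34), Gzmc (1.23) and Fasl (1.01), and more negative for Itgb7 (-3.1), Cd96 (-2.08), Itgb3 (-1.87), Klri2 (-1.45) and Serpinb9d (-1.04). Among T cell receptor signalling and induced genes it was more positive after activation for Egr2 (3.57), Nr4a1 (3.48), Gadd45b (2.95), Ubash3b (2.94) and Nfkbia (1.09), and more negative for Cd2 (-1.43) and Icos (-1.11). Among the other lists it was more positive after activation for Egln3 (3.19), Mcm7 (1.91), Slc2a3 (1.72), Ddx10 (1.7), Hsd17b7 (1.6), Ifih1 (1.54), Idi1 (1.53), Ifi27l2a (1.17), Pfkfb4 (1.05) and Ebf1 (1.03), and more negative for Ctss (-1.34) and Irgm1 (-1.11). Among the genes chosen after their values were seen it was more positive after activation for Gzmn (2.43) and Gzme (2.22), and more negative for Il23a (-2.1), BC037156 (-1.51), Tmem176a (-1.25) and Tmem176b (-1.13).

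Outside the gene-named probe sets, 235 of 12146 rows without a gene name (1.93%) were called between the activated clones when fitted with all rows, 99 higher and 136 lower in sAg1, against 5.03% of the gene-named probe sets.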

How the results depend on the processing

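The minimum on the difference decided the counts most. Without it, 8284 probe sets were called between the activated clones (4414 higher and 3870 lower in sAg1), 8166 between the dormant clones, 5585 for the change between states and 6116 between activated 8uvmo-2 and 8uvmo-3. Under limma's treat test against a difference of 1 the counts were 674 (347 higher, 327 lower), 928, 280 and 345. With all rows of the file, 2888 were called between the dormant clones and 2279 for the change. Leaving out each array in turn gave 1161 to 1215 calls between the activated clones (600 to 646 higher, 555 to 574 lower), 1718 to 1796 between the dormant clones, 1161 to 1243 for the change and 701 to 763 for the 8uvmo pair. A fit with the replicate block gave 1178 (610 higher, 568 lower), 1762, 1217 and 725 calls and changed no call of a named gene. Whether the replicate numbers pair the arrays is not in the labels.

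The remaining alternatives (a filter on dim probe sets, median centring, quantile normalization, no trend, array weights, the compared arrays alone, 1 probe set per symbol, no chromosome 8) left each of these counts within 1.5 times. Of 2972 recomputed differences of 149 named genes, none reversed, 36 lost and 17 gained a call. The treat test accounts for 24 of the losses and the absent minimum for 12 of the gains. Besides Mcm7 and Ccr8, single arrays ended the calls of Tnfrsf9, Serpinb9d and Car9, whose differences were -1.0, -1.16 and -1.08. Without sAg3 replicate 2 these were -0.98, -0.90 and -0.83. Ribosome biogenesis members higher in sAg1 numbered 33 to 37 over the alternatives, and cell cycle members 4 to 18, with 16 under array weights and 18 with the compared arrays alone. The lower count ran from 3 to 8 for genes the T cell receptor induces, 3 to 7 for TNF receptors and 2 to 6 for macrophage and dendritic cell markers. Centring and quantile normalization moved the median of all probe sets to -0.008 and -0.011. Chromosome 8 lay -0.085 from the other chromosomes and -0.242 without dim probe sets. Signal near background and near the array maxima limits the size of differences.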

Other observations

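Several runs of neighbouring genes were called in 1 direction, all chosen after their values were seen. On chromosome 6, Gimap5, Gimap3, Tmem176b and Tmem176a were higher in sAg1 (differences 1.19, 1.36, 4.07 and 3.82). The Gimap genes encode GTPases of lymphocyte survival. Tmem176b, an ion channel-like membrane protein, read 12.29, 12.26, 12.28 and 12.05 in sAg1, against 7.38, 9.18, 7.81 and 8.22 in sAg3. On chromosome 13, Naip2, Naip5 and Naip6, sensors of bacterial flagellin and secretion systems, were lower in sAg1 (differences -1.08, -1.81 and -1.44). Naip5 averaged 6.78 ± 0.174 in sAg1 and 8.60 ± 0.152 in sAg3 (SD, n = 4 each).

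Within activated sAg3, the second array was the highest and the first the lowest for Klrg1 (11.17 and 9.82), Il1r2 (9.88 and 7.76), Car9 (8.44 and 7.10), Tmem176b (9.18 and 7.38), Csn2 (13.18 and 12.49) and Serpinb9d (5.59 and 4.23). Within activated sAg1, replicates 1 and 2 were above replicates 3 and 4 for Il5, Il13, Il10, Cd36 and Ctss, but not for Mest. These genes were picked after their values were seen, and the labels give no batch for these arrays.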
